A study of Brassica napus with 24 samples.

Results

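Anthers of middle buds (An-MBs) of Brassica napus cultivar Zhongshuang No. 9 were compared between plants sprayed with monosulfuron ester sodium (MES) and mock-sprayed plants. These were 6 of the 24 arrays of the study, 3 MES and 3 mock, and were chosen by their sample titles. All 43603 probes other than controls were examined. The MES spray held 0.1 μg/mL MES, with DMF at 50 ppm and Tween 80 at 5 ppm, at about 15 mL per plant. The mock spray held the same DMF and Tween 80 without MES, so both groups were exposed to the solvent and the detergent. Plants were sprayed once the longest bud was at most 2 mm, each treatment covered 60 rows, and 20 rows were pooled for a replicate. Middle buds measured 1 to 3 mm, and the labels place their anthers between meiosis and the early uninucleate microspore. The other arrays came from leaves (Ls), small buds (SBs) and anthers of large buds (An-LBs), and were used here only to describe where the changed transcripts stood in other tissues.

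MES is a sulfonylurea, a class of herbicides that block acetolactate synthase, the first enzyme of branched-chain amino acid synthesis, and at low doses it serves as a chemical hybridization agent that makes plants male sterile. Inside an anther, the tapetum feeds the microspores and builds much of their wall, and the microspores divide and mature into pollen. Maturing pollen lays down transcripts for the tube it will later grow, among them pectin methylesterases and polygalacturonases that remodel pectin, proton pumps of the plasma membrane, and proteins of lipid bodies and dehydration tolerance. No probe named in the study's tables belonged to branched-chain amino acid synthesis, so the target pathway of MES is not described here. Gene names are those the study's tables give to a probe, with the Arabidopsis homologue as the name, and functions given below are those known in Arabidopsis unless stated otherwise.

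Primer pairs from the study's supplement are printed for 3 genes on which the comparison turns, since they show the transcript stretch by which each gene can be recognised. VGDH2 and PPME1 encode pectin methylesterases of pollen and were lower in MES An-MBs, and XTH24, annotated as a xyloglucan endotransglucosylase, was higher. All are written 5′ to 3′.
VGDH2 forward: ttctccataactgccgtatc
VGDH2 reverse: ccattcgttccatcctacc
PPME1 forward: agatggcattagagtgataacag
PPME1 reverse: ctcggtgtaggcgtagac
XTH24 forward: agagcaagccgatgaggatg
XTH24 reverse: gcctgtaagaagccacgaatg

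Signals are given as log2 values after quantile normalization, so that 1 unit is a doubling, and values of different probes are not set against each other. A probe counted as well above background where the scanner software marked it so. MES replicate 2 stood apart before any comparison was made. Its median signal before normalization was 383.9, against 1098 and 1162 on the other MES arrays and 921.8 to 1137 on the mock arrays. It correlated with MES replicates 1 and 3 at r = 0.945 and 0.954 across probes, whereas those correlated at 0.989 with each other. Among dim probes, with a mean below 8, it lay a median of 1.07 log2 units from the mean of the other MES arrays, and above 12 it lay 0.494 away, against 0.309 and 0.169 between those arrays. Between 74.9% and 80.3% of the probes of an MES array were well above background, and between 78.6% and 80.1% of a mock array, with 0 saturated.

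The array names of mock replicates 1 and 2 carry the same sample code, while their titles give them as separate replicates. They correlated at 0.982, between the 0.986 of replicates 1 and 3 and the 0.975 of replicates 2 and 3, and were counted as separate samples. With these averaged into 1 sample, 316 probes were higher and 122 lower. MES samples lay on slides 4, 5 and 6 and mock samples on slides 1, 2 and 3, so slide and treatment cannot be told apart. Mock replicate 1 was scanned on another day than the other 5 arrays.

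Probes were tested where at least 3 of the 6 arrays were well above background. Of 34773 such probes, 2468 (7.1%) changed, which required at least 2-fold and an adjusted p under 0.05 (limma, two-sided, Benjamini-Hochberg). MES An-MBs had 1474 probes higher (4.24%) and 994 lower (2.86%). At an unadjusted p under 0.05 there were 8363 probes, and 11269 (32.4%) had no overlap between the 3 MES and the 3 mock arrays. With the scan day as a term, 377 were higher and 404 lower, and within the later scan day alone 367 were higher and 402 lower, over probes detected on 2 or more of those 5 arrays. Mock replicate 1 was the only array of its scan day, so the term cannot tell the day from that array. These counts, and those below with this term, are not a check separate from leaving it out.

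The fall was deeper than the rise. Of the probes lower in MES An-MBs, 434 fell at least 10-fold and 200 at least 100-fold on the fitted means. Of those higher, 215 rose at least 10-fold and 2 at least 100-fold. Among the lower probes 327 were well above background on 0 of the 3 MES arrays, so that their change is known only as a lower bound, while 90 of the higher probes were so on 0 of the 3 mock arrays. The bound sets the mock mean against the dimmest signal that was still well above background on each MES array, or the probe's own where that was higher. By the bound alone, 196 probes were at least 10-fold lower and 94 at least 100-fold lower, and 14 were at least 10-fold higher. Bulk anthers were measured, so fewer cells of a type and less RNA per cell cannot be told apart.

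Of 13 probes for pectin methylesterases and their inhibitors, 7 were tested and 6 were lower in MES An-MBs, while 5 were well above background on 0 of the 6 arrays. These probes, like those of all the gene groups below, are those the study's tables name, and since the study chose them on these and its other arrays, their counts are not read against the share of all probes. VGDH2, a homologue of VANGUARD 1, read 2.96, 3.74 and 3.87 in MES An-MBs and 15.87, 16.77 and 17.92 in mock An-MBs. The groups lay far apart, and VGDH2 was at least 4030-fold lower (adjusted p = 0.000252). PPME1, a pectin methylesterase of pollen, read 2.79, 2.79 and 3.83 in MES An-MBs and 14.54, 15.45 and 16.76 in mock An-MBs, at least 1670-fold lower (adjusted p = 0.000382). VGDH1 read 4.35, 3.20 and 4.45 in MES An-MBs, against 13.97, 14.48 and 16.06 in mock An-MBs, and was at least 943-fold lower. All 3 probes lacked a signal above background on every MES array.

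VGD1, which is needed for growth of the pollen tube through the style, kept a measurable signal in MES An-MBs on 1 of its probes. That probe read 7.07, 7.11 and 6.77 in MES An-MBs and 13.24, 13.54 and 15.67 in mock An-MBs, a change of -7.17 ± 0.64 (SE, adjusted p = 0.0029), and its other tested probe was at least 187-fold lower. In each of these probes mock replicate 3 was the highest array. A weaker PPME1 probe changed by -5.17 ± 0.97 (adjusted p = 0.0319), and this call was lost when MES replicate 1 or 3 or mock replicate 1 or 2 was left out. AT5G07430 did not pass the test (-0.78 ± 1.10, adjusted p = 0.721), with 7.19, 9.01 and 6.71 in MES An-MBs and 7.40, 7.11 and 10.74 in mock An-MBs. The 3 probes of AT2G26450 gave no signal well above background on the 6 arrays, although their means in mock An-LBs lay between 15.62 and 16.72.

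Polygalacturonases and related pectin lyase-like proteins were lower on every probe tested. Of 22 probes of 10 genes, 16 were tested and all 16 were lower, also with the scan day as a term. All 16 stayed lower whichever array was left out, over probes detected on 2 or more of the 5 arrays left. With detection required on 3 of those 5, 0, 1 and 1 were lower without mock replicate 1, 2 and 3, since that filter drops probes detected only in mock. With detection required on all 6 arrays 0 were lower. The count of 16 therefore rests on probes admitted through the mock arrays, and is a description. Of the 16, 10 are probes of 1 gene, AT3G07840, and are not replicates of the treatment. Its probe A_46_P225554 read 2.76, 2.76 and 2.77 in MES An-MBs and 15.82, 16.71 and 17.75 in mock An-MBs, at least 3780-fold lower (adjusted p = 0.000121). AT5G48140 read 4.60, 2.76 and 3.19 in MES An-MBs and 15.01, 15.37 and 16.71 in mock An-MBs, at least 1810-fold lower. PGA4, polygalacturonase 4, was dimmer, with 2.81, 4.05 and 3.12 in MES An-MBs and 7.85, 7.78 and 9.06 in mock An-MBs, and it was at least 10.2-fold lower. The pectate lyase probes of AT59, AT5G15110 and AT3G01270 were at the floor on all 6 arrays, while their means in mock An-LBs were between 14.85 and 16.12. Within 1 class of enzymes, then, some genes were already high in mock An-MBs and low in MES An-MBs, and others could not be compared at this stage.

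Transcripts of other pollen proteins fell as far. AT3G28980, of a family with the domain of unknown function DUF1216, read 3.42, 3.35 and 3.10 in MES An-MBs and 17.03, 17.28 and 18.34 in mock An-MBs, at least 6540-fold lower. Of the 18 probes of this family 15 were tested and 14 were lower. AT5G53820, a late embryogenesis abundant protein of a family tied to water loss, read 2.85, 2.82 and 3.54 in MES An-MBs and 16.84, 16.93 and 18.21 in mock An-MBs, at least 5600-fold lower, and all 4 of its probes were lower. AT3G28750, annotated as an unknown protein, was at least 6190-fold lower.

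Oleosins coat the lipid bodies of pollen and seeds. AT2G25890, an oleosin, read 6.27, 7.33 and 5.67 in MES An-MBs and 15.47, 15.27 and 16.51 in mock An-MBs on the probe that stayed well above background, a change of -9.33 ± 0.53 (adjusted p = 0.000601). OLEO4 went the other way at a low level, with 6.61, 6.51 and 6.96 in MES An-MBs and 4.77, 4.23 and 4.46 in mock An-MBs (2.21 ± 0.24, adjusted p = 0.00599), with 1 of the 3 mock arrays well above background. FLA5, a fasciclin-like arabinogalactan protein, read 5.18, 3.37 and 4.52 in MES An-MBs and 15.23, 15.06 and 16.34 in mock An-MBs, at least 1470-fold lower. TPX1, a thioredoxin-dependent peroxidase, and AT1G29140, of the pollen Ole e 1 allergen family, changed by -7.96 ± 0.51 and -8.02 ± 0.62.

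**Figure D1:**
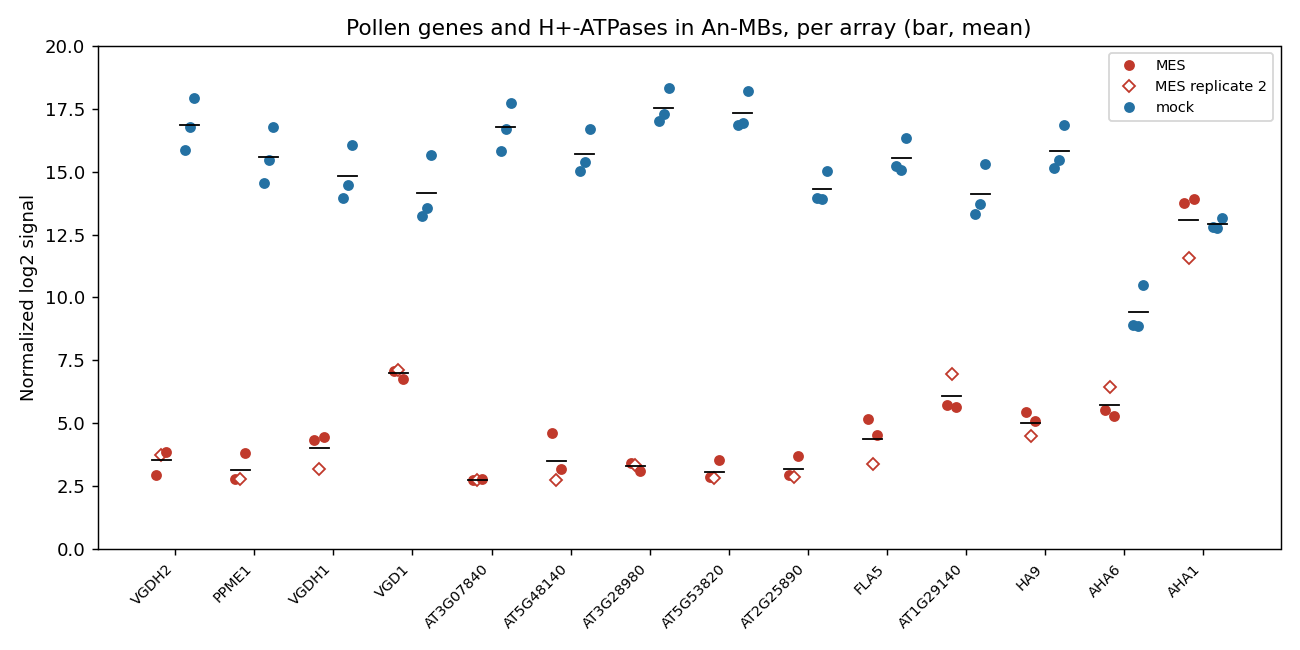
Normalized log2 signal (vertical axis) of 14 probes in MES (left, red) and mock (right, blue) An-MBs, 1 point per array, open diamonds for MES replicate 2 and bars for the means. From VGDH2 to AHA6 every mock array lies above every MES array, whereas the points of AHA1 overlap. All called probes had no overlap, so the separation of those follows from the call.

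The proton pumps separated by member. HA9, a plasma membrane H+-ATPase of anthers, read 5.44, 4.48 and 5.09 in MES An-MBs and 15.14, 15.47 and 16.86 in mock An-MBs, a change of -10.82 ± 0.51 (adjusted p = 0.000355), with 2 of the 3 MES arrays well above background. AHA6, a pump of pollen, read 5.52, 6.43 and 5.27 in MES An-MBs and 8.90, 8.86 and 10.50 in mock An-MBs (-3.68 ± 0.55, adjusted p = 0.0156), and its call was lost without MES replicate 1 or 3 or mock replicate 1. AHA1, which is active in most tissues, read 13.74, 11.57 and 13.93 in MES An-MBs and 12.81, 12.77 and 13.16 in mock An-MBs (0.17 ± 0.64, adjusted p = 0.904), and AHA3 differed by -0.17 ± 0.86 (adjusted p = 0.928). On both probes MES replicate 2 was the lowest of the 6 arrays. Without it, and with detection on at least 2 of the 5 arrays left, AHA1 rose by 0.93 ± 0.19 (adjusted p = 0.0288), short of 2-fold. AHA8 was not tested, being well above background on 1 array alone.

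Of the 61 transport probes named, 50 were tested, of which 8 were higher and 8 lower. CNGC18, a calcium channel of the pollen tube tip, changed by -3.75 ± 0.44 (adjusted p = 0.00712), with 2 of the 3 MES arrays well above background. ZIP10, a zinc transporter, was at least 10.7-fold lower, and VIT1, which loads iron into the vacuole, changed by -5.39 ± 0.43. ADF7, an actin depolymerizing factor of pollen, read 2.81, 2.85 and 2.84 in MES An-MBs and 10.45, 10.01 and 11.46 in mock An-MBs, at least 54.3-fold lower. ANX2, a receptor-like kinase that keeps the tube intact, was at least 4.98-fold lower.

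The lower probes were also read at the other stages. By stage, the 994 lower probes had a median of 5.88 (SBs), 6.49 (An-MBs) and 6.89 (An-LBs) in MES plants, and of 6.39 (SBs), 11.06 (An-MBs) and 11.87 (An-LBs) in mock plants. Of these probes, 575 (57.8%) were higher in mock An-LBs than in mock SBs by the same test and 99 (9.96%) lower, against 5133 (15.9%) higher and 9589 (29.7%) lower among the 32305 probes that were not called. Over all probes tested between these stages, 19.9% were higher and 29.6% lower. The mock SBs and An-LBs were not part of the An-MBs comparison. The 575 is a description, since 327 of the 994 entered the test through the mock arrays alone. In An-LBs, MES also lowered 634 of the 994 and raised 1, and of all probes tested there 11.9% were lower. In SBs, 54 were lower and 2 higher, where 2.32% of all tested probes were lower, and in Ls 23 were lower and 10 higher, where 2.3% were lower.

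**Figure D2:**
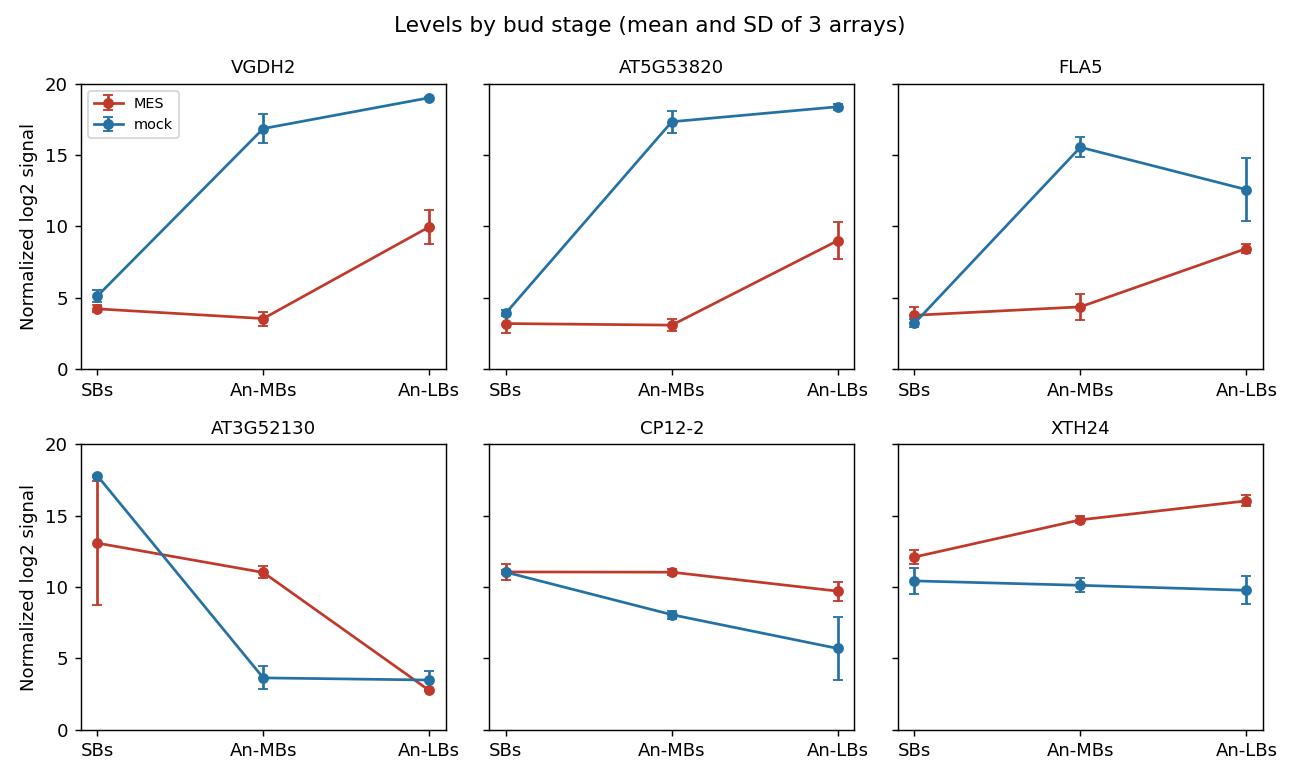
Mean normalized log2 signal with SD (3 arrays each) at the 3 bud stages in MES (red) and mock (blue) plants for 6 probes. VGDH2 and AT5G53820 are high in mock An-MBs and An-LBs and low in MES An-MBs, FLA5 is highest in mock An-MBs, and AT3G52130 is high in SBs and low in mock An-MBs.

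The depth of the fall differed between the stages for several of these probes. VGDH2 averaged 9.96 in MES An-LBs and 19.01 in mock An-LBs, and its change in An-MBs was lower than its change in An-LBs by -4.28 ± 0.69 (interaction contrast, adjusted p = 0.000249). FLA5 averaged 8.44 in MES An-LBs and 12.57 in mock An-LBs, with a difference of -7.06 ± 1.15 (adjusted p = 0.000267). For AHA6 this difference was 4.06 ± 0.50 (adjusted p = 9.29e-06), where it averaged 5.74 in MES and 9.42 in mock An-MBs, and 6.12 in MES and 13.85 in mock An-LBs. Signals at the floor and unequal mock levels limit these differences, since a probe cannot fall below the floor.

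Probe sets were also chosen in mock tissues alone, without reference to the An-MBs arrays. A late-anther set held the 2331 probes at least 10-fold higher in mock An-LBs than in mock SBs. An early-bud set held the 1320 probes at least 10-fold lower there. A leaf set held the 977 probes at least 10-fold higher in mock Ls than in mock SBs, where 19.3% of the tested probes were higher. The leaf set shared 148 probes with the late-anther set and 72 with the early-bud set. In MES An-MBs, 462 probes of the late-anther set were lower (19.8%) and 161 higher (6.91%), against 2.28% lower and 3.38% higher of all 43603 probes. With detection required on all 6 arrays 133 were lower. The count of 462 takes in probes admitted through the mock An-MBs arrays, and is a description. Its array medians were 6.47, 5.96 and 6.26 in MES An-MBs and 7.57, 7.33 and 8.24 in mock An-MBs, so that all 3 MES arrays lay below all mock arrays. The median difference of the set was -0.15, while its lowest 5% of probes differed by -8.27 or below, and 378 of its probes were well above background on 0 of the 6 arrays.

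For the early-bud set, 94 probes were higher (7.12%) and 7 lower (0.53%). The higher ones numbered between 34 and 131 with 1 array left out, over probes detected on 2 or more of the 5 left, and 51 with the scan day as a term. Array medians of this set were 8.29, 9.62 and 8.68 in MES An-MBs and 8.51, 8.76 and 7.49 in mock An-MBs, which overlapped, with MES replicate 2 the highest. The leaf set had 149 probes higher (15.3%) and 17 lower (1.74%). The higher ones numbered between 44 and 268 with 1 array left out in that way, 46 with the scan day as a term and 96 with the replicate number as a block (the replicate block). Other counts below with 1 array left out use the same detection filter unless stated otherwise. Its array medians were 8.07, 8.33 and 8.22 in MES An-MBs and 7.32, 7.22 and 7.34 in mock An-MBs, which did not overlap, and its median difference was 0.66 against 0.01 over all probes. With sets taken at 4-fold, 12.8% of the late-anther set were lower, 5.86% of the early-bud set higher and 10.5% of the leaf set higher.

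**Figure D3:**
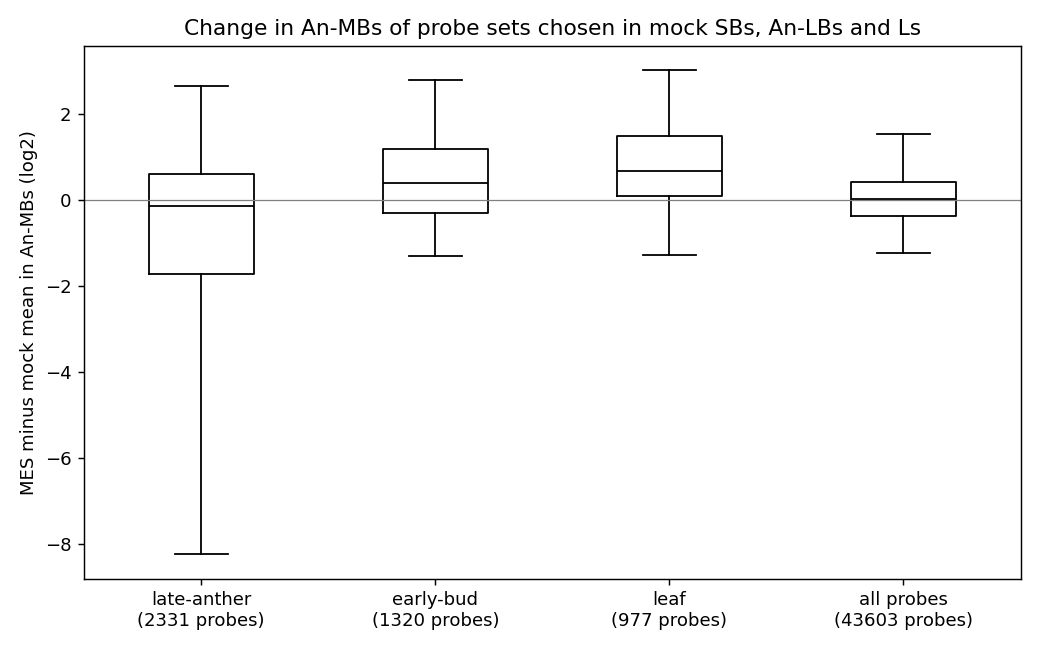
MES minus mock mean in An-MBs (log2, vertical axis) for the late-anther, early-bud and leaf sets and for all probes. Boxes span the quartiles with the median as a line, and whiskers run from the 5th to the 95th percentile. The late-anther set reaches down to -8.27 at its 5th percentile, against -1.25 for all probes, and the leaf set is shifted up by a median of 0.66.

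Few transcripts of the tapetum and of young buds were named, and they gave no common direction. AT3G52130, a lipid-transfer family protein, read 10.55, 11.35 and 11.18 in MES An-MBs and 4.21, 3.95 and 2.72 in mock An-MBs, at least 85.7-fold higher (adjusted p = 0.00075). Its mean was 13.08 in MES SBs and 17.81 in mock SBs, and 2.75 in MES An-LBs and 3.48 in mock An-LBs, so that a transcript of small buds was still measurable in MES An-MBs and not in mock An-MBs. LAP6, which helps make the sporopollenin of the pollen wall, read 9.11, 5.95 and 9.44 in MES An-MBs and 11.51, 4.80 and 3.91 in mock An-MBs, with mock replicate 1 above all others (1.43 ± 2.13, adjusted p = 0.736) and 2 of the 3 mock arrays well above background. Its mean in mock SBs was 15.83. AT1G20130, a GDSL-like lipase, was high in both groups, with 17.95, 15.47 and 16.41 in MES An-MBs and 18.65, 17.60 and 18.51 in mock An-MBs (-1.64 ± 0.66, adjusted p = 0.20). Of the meiosis list 1 probe was named, AT4G37510, a ribonuclease III family protein, which read 8.14, 7.87 and 8.48 in MES An-MBs and 7.40, 8.09 and 7.29 in mock An-MBs and did not pass the test (0.57 ± 0.30, adjusted p = 0.316). That annotation names no meiosis gene, so the value does not describe meiosis. DMC1 had no named probe, and the pollen genes above were high in all 3 mock samples.

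All 7 probes of the 3 CP12 genes and 7 of 23 photosynthesis probes were higher in MES An-MBs, and a CP12-1 and a CP12-2 probe are on both lists. CP12 proteins bind and switch off Calvin cycle enzymes in the dark. CP12-2 read 10.80, 11.16 and 11.15 in MES An-MBs and 8.31, 7.77 and 8.10 in mock An-MBs (2.98 ± 0.24, adjusted p = 0.00201). CP12-3 read 13.62, 13.81 and 13.56 in MES An-MBs and 10.60, 10.41 and 10.22 in mock An-MBs (3.25 ± 0.21, adjusted p = 0.000847). The strongest of the 4 CP12-1 probes changed by 2.34 ± 0.19, and the weakest by 1.26 ± 0.21. Between 4 and 7 CP12 probes remained higher with 1 array left out.

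All 23 photosynthesis probes were tested. LHCA3, an antenna protein of photosystem I, read 14.94, 14.70 and 15.04 in MES An-MBs and 13.49, 13.61 and 13.25 in mock An-MBs (1.44 ± 0.21, adjusted p = 0.0159). RCA, which activates Rubisco, read 13.29, 12.45 and 13.45 in MES An-MBs and 11.40, 11.76 and 11.13 in mock An-MBs (1.63 ± 0.34, adjusted p = 0.0428). PSAL, of the same photosystem, changed by 1.45 ± 0.26. The count was unstable, from 1 to 10 with 1 array left out, and it was 1 with the scan day as a term and 1 with the replicate block. NDF4 and PSAO had lower means in MES An-MBs (-1.57 and -0.64) and did not pass the test.

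In MES An-MBs, 8 of 12 tested cytochrome P450 probes, 5 of 7 glycosyltransferase probes and the 1 glutathione S-transferase probe were higher. So were 4 of 16 efflux and heavy metal transport probes, and 1 glycosyltransferase probe was lower. These lists follow gene annotation, and a role of their members in detoxification was not tested. Cytochrome P450s add oxygen to foreign and endogenous compounds, glycosyltransferases and glutathione S-transferases attach a sugar or glutathione to them, and transporters export the products. The 4 higher transport probes were of heavy metal domain proteins, so an export step is not shown by them. The P450 count was 4 with the scan day as a term and 4 with the replicate block. CYP81D1 read 13.15, 13.31 and 13.26 in MES An-MBs and 10.16, 9.92 and 9.69 in mock An-MBs (3.32 ± 0.21, adjusted p = 0.000835), and a further probe of it changed by 3.34 ± 0.27. In An-LBs that first probe averaged 16.12 in MES and 15.88 in mock plants, and the difference between the stages was 3.08 ± 0.48 (adjusted p = 0.00016). CYP72A11 lay between 13.96 and 14.32 in MES An-MBs and between 10.80 and 11.33 in mock An-MBs (3.06 ± 0.24). CYP71B2 and CYP71B27 rose by 3.80 ± 0.58 and 3.76 ± 0.69, with adjusted p = 0.017 and 0.0293, and both calls were lost without MES replicate 3, mock replicate 1 or mock replicate 2. Another CYP81D1 probe had a lower mean in MES An-MBs and did not pass the test (-1.24 ± 0.36, adjusted p = 0.0984), so the probes of this gene disagreed.

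GSTU8, the only glutathione S-transferase named, read 9.15, 8.20 and 9.24 in MES An-MBs and 4.73, 4.18 and 3.76 in mock An-MBs (4.64 ± 0.39, adjusted p = 0.00239), with 1 of the 3 mock arrays well above background. The glycosyltransferase count of 5 was 3 with the scan day as a term and between 3 and 5 with 1 array left out. HYR1 read 9.48, 9.67 and 9.21 in MES An-MBs and 6.78, 6.41 and 6.22 in mock An-MBs (2.99 ± 0.25), and UGT72B1, which conjugates chlorinated pollutants, changed by 2.87 ± 0.28. UGT71B8 fell, with 5.73, 5.40 and 6.11 in MES An-MBs and 9.17, 8.47 and 9.30 in mock An-MBs (-3.23 ± 0.32, adjusted p = 0.00401), with 2 of the 3 MES arrays well above background. The 4 higher efflux and heavy metal transport probes were all from the heavy metal domain proteins AT2G36950 and AT1G01490. Their count was 2 with the scan day as a term, 2 with the replicate block and 2 without MES replicate 1, MES replicate 3, mock replicate 1 or mock replicate 3, and 6 without MES replicate 2. AT2G36950 read 14.85, 14.66 and 14.35 in MES An-MBs and 10.28, 10.76 and 10.59 in mock An-MBs (4.08 ± 0.24, adjusted p = 0.000701). The ABC transporter and MATE efflux probes did not pass the test.

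**Figure D4:**
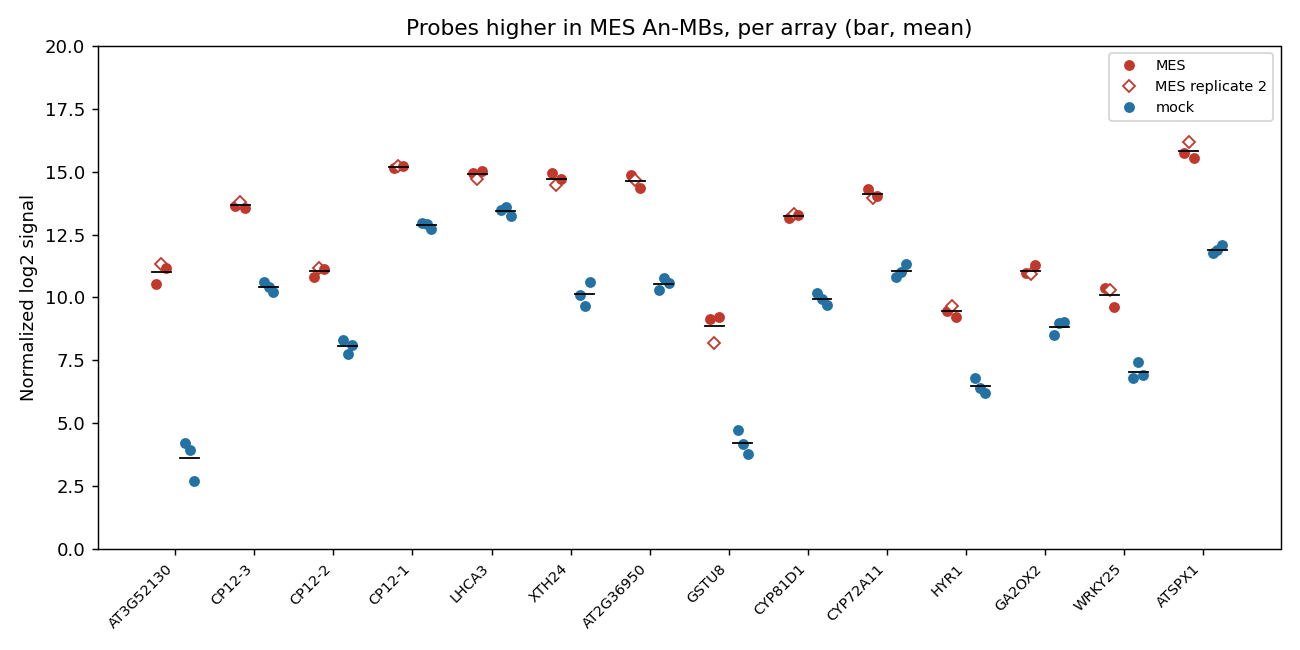
Normalized log2 signal (vertical axis) of 14 probes higher in MES (left, red) than in mock (right, blue) An-MBs, 1 point per array, open diamonds for MES replicate 2 and bars for the means. On every probe all 3 MES arrays, replicate 2 included, lie above all 3 mock arrays. All called probes had no overlap, as had 32.4% of all probes tested, so this separation follows from the call.

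Hormone genes moved in both directions. Of 21 probes 18 were tested, 8 were higher and 3 lower. GA2OX2, which inactivates gibberellins, read 10.96, 10.92 and 11.28 in MES An-MBs and 8.51, 8.97 and 9.01 in mock An-MBs (2.23 ± 0.24, adjusted p = 0.00543). DWF4, an enzyme of brassinosteroid synthesis, read 10.51, 10.36 and 10.38 in MES An-MBs and 9.09, 9.32 and 9.20 in mock An-MBs (1.21 ± 0.19, adjusted p = 0.0188), and its call was lost when any array other than MES replicate 2 was left out. AT5G44300, a dormancy- and auxin-associated protein, read 2.88, 2.80 and 2.81 in MES An-MBs and 13.55, 13.09 and 13.97 in mock An-MBs, at least 405-fold lower. AT5G53820, described above, is also on this list. IAGLU, which joins glucose to the auxin indole-3-acetic acid, was at least 3.83-fold higher.

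Cell wall and sugar genes outside pollen pectin changed in both directions. XTH24 read 14.96, 14.47 and 14.71 in MES An-MBs and 10.09, 9.66 and 10.62 in mock An-MBs, a rise of 24.1-fold (4.59 ± 0.31, adjusted p = 0.000967). C/VIF1, an inhibitor of the invertases that split sucrose, read 13.07, 12.65 and 12.28 in MES An-MBs and 7.44, 7.86 and 8.16 in mock An-MBs, 28.7-fold higher (4.84 ± 0.31, adjusted p = 0.000819). UGE3, which makes UDP-galactose, read 9.18, 8.54 and 9.50 in MES An-MBs and 13.33, 12.82 and 13.92 in mock An-MBs (-4.28 ± 0.38, adjusted p = 0.00289). RGP1, linked to arabinose supply for the wall, changed by -1.91 ± 0.36, and CSLD4, a cellulose synthase-like protein of the pollen tube, by -3.76 ± 0.53. Of 43 cell wall probes 31 were tested, 3 were higher and 15 lower.

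Lipid genes gave no single direction, with 4 higher and 5 lower of 20 tested. AT3G23510, a cyclopropane-fatty-acyl-phospholipid synthase, read 10.74, 11.05 and 10.64 in MES An-MBs and 14.03, 14.01 and 14.31 in mock An-MBs (-3.30 ± 0.22, adjusted p = 0.000948). GLTP1, which carries glycolipids between membranes, changed by -6.43 ± 0.49, with 2 of the 3 MES arrays well above background. Phospholipase D delta, which forms phosphatidic acid, read 14.01, 13.77 and 14.01 in MES An-MBs and 12.64, 12.92 and 12.89 in mock An-MBs (1.11 ± 0.20, adjusted p = 0.0293), and its call was lost when any array other than MES replicate 2 was left out.

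Regulators, stress proteins and proteases were mixed. Of 89 transcription factor and RNA probes tested, 11 were higher and 9 lower. WRKY25, a factor of heat and pathogen responses, rose by 3.04 on the log2 scale, MYB51, which switches on indole glucosinolate genes, by 2.37 ± 0.23, and RAP2.3, an ethylene-responsive factor, by 1.84 ± 0.24. SPX1, a sensor of phosphate status, rose by 3.92. Of 28 stress probes tested 5 were higher and 5 lower. Of 49 protein degradation probes 12 were higher and 3 lower, among them the cysteine protease AT5G43060, which read 17.73, 17.25 and 17.71 in MES An-MBs and 15.11, 15.37 and 15.50 in mock An-MBs (2.24 ± 0.24). AT3G54940, also a cysteine protease, was at least 15.7-fold lower, with 2.82, 2.76 and 2.78 in MES An-MBs and 8.59, 7.71 and 10.24 in mock An-MBs. RNS1, a ribonuclease of phosphate shortage and senescence, changed by 2.45 ± 0.27.

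The higher probes were read at the other stages likewise. By stage, the 1474 higher probes had a median of 10.35 (SBs), 11.25 (An-MBs) and 11.94 (An-LBs) in MES plants, and of 9.69 (SBs), 9.05 (An-MBs) and 9.93 (An-LBs) in mock plants. Between the mock stages, 475 (32.2%) were higher in An-LBs than in SBs and 367 (24.9%) lower. Over all probes tested between these stages, 19.9% were higher and 29.6% lower. MES raised 1006 of the 1474 in An-LBs and lowered 38, where 17.3% of all tested probes were higher and 11.9% lower. In SBs it raised 212 and lowered 16, where 1.81% of all tested probes were higher and 2.32% lower. In Ls it raised 170 and lowered 25, where 2.52% were higher and 2.3% lower.

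Several of the largest changes have no gene name here. Probe A_46_P276553 read 11.04, 11.03 and 10.47 in MES An-MBs and 5.56, 5.48 and 5.94 in mock An-MBs (5.19 ± 0.26, adjusted p = 0.000382). A_46_P240124 read 15.50, 15.17 and 15.71 in MES An-MBs and 10.12, 10.15 and 11.09 in mock An-MBs (5.01 ± 0.34). A_46_P032416 read 8.54, 5.99 and 4.69 in MES An-MBs and 15.45, 15.37 and 16.08 in mock An-MBs (-9.23 ± 0.94, adjusted p = 0.00448), with MES replicate 1 the highest of its group. Where all 6 arrays were well above background, the largest rise that a gene name accompanies was that of AT3G03341, an unknown protein, at 5.62 ± 0.89 (adjusted p = 0.0188), which lost its call without MES replicate 1, MES replicate 3 or mock replicate 1.

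More probes passed without MES replicate 2. With that array left out, and detection required on 3 of the 5 left, 3076 of 34451 probes were higher (8.93%) and 2213 lower (6.42%), and these included 1363 of the 1474 and 974 of the 994. On the array that was left out, 2164 of the 3076 (70.4%) lay above all mock arrays, against 39.2% of all probes tested, and 1628 of the 2213 (73.6%) lay below them, against 39.7%. Its median difference from mock was 1.03 for the higher probes, where MES replicates 1 and 3 gave 1.65, and -0.94 for the lower probes, where they gave -1.49. It pointed the other way by at least 2-fold on 263 and 74 of these probes. The same mock arrays served to choose these probes and to place MES replicate 2. Shares above those of all probes are therefore partly set by the choice.

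CYP72A13 shows the pattern, with 11.21, 8.59 and 11.14 in MES An-MBs and 6.91, 7.39 and 7.07 in mock An-MBs. It changed by 3.19 ± 0.72 (adjusted p = 0.0527) with all arrays and by 4.05 (adjusted p = 0.00328) without MES replicate 2, which lay above the mock arrays but below its own group. The peptide transporter PTR1 read 13.75, 11.59 and 13.78 in MES An-MBs and 10.07, 10.11 and 10.81 in mock An-MBs, and passed only without that array (3.44, adjusted p = 0.00587). Among the falls of this kind, ADF10, an actin depolymerizing factor, read 4.40, 5.79 and 4.52 in MES An-MBs and 6.76, 6.41 and 8.14 in mock An-MBs (-2.64 without MES replicate 2, adjusted p = 0.0289). AT4G23800, a high mobility group protein, read 7.36, 10.12 and 8.26 in MES An-MBs and 10.91, 11.41 and 10.57 in mock An-MBs (-3.15 without it, adjusted p = 0.0108).

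Leaving out any other array lowered the counts. Over probes detected on 2 or more of the 5 arrays left, the higher probes numbered between 367 and 737 and the lower ones between 402 and 642, and the lowest counts of both came without MES replicate 3 or mock replicate 1. Under this filter, which was chosen after the data were seen, 16 of 16 polygalacturonase, 14 or 15 DUF1216 and 5 or 6 pectin methylesterase probes were lower each time. The P450 count ranged from 4 to 9 and the hormone count of higher probes from 2 to 9. With detection required on all 6 arrays, 0 polygalacturonase, 2 DUF1216 and 2 pectin methylesterase probes were lower.

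**Figure D5:**
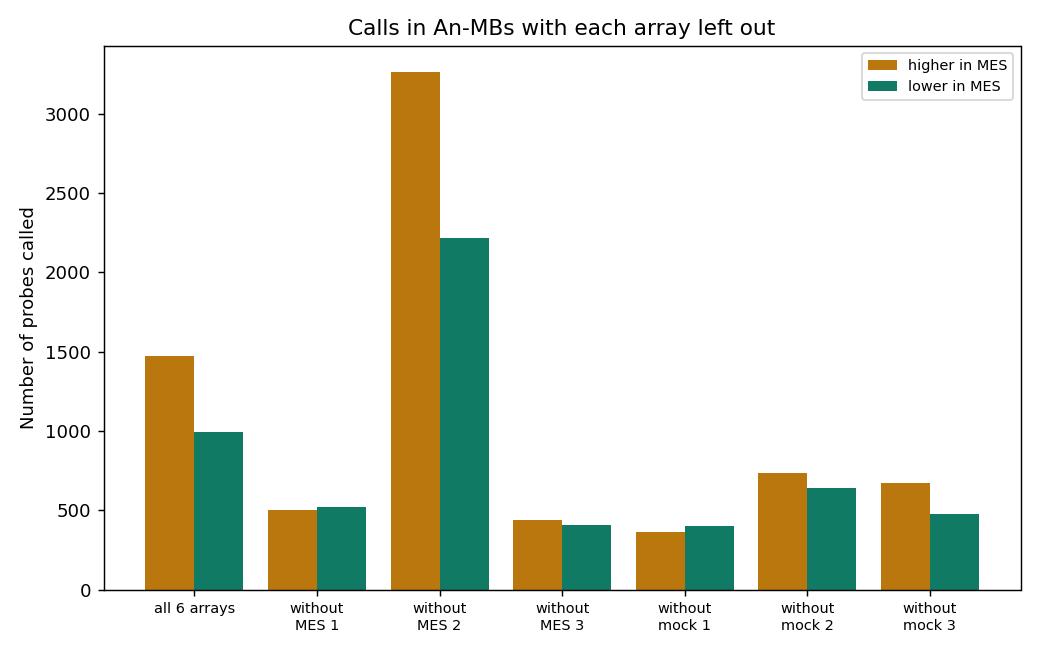
Number of probes called higher (brown) and lower (green) in MES An-MBs with all 6 arrays and with each array left out, over probes detected on 2 or more of the 5 arrays left. Without MES replicate 2 the counts were 3263 and 2214, and without any other array both were below those of all 6 arrays.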

How the data were processed

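Each sample was hybridized to a one-colour array. The intensity values were made by the authors with Agilent Feature Extraction, and per the file headers they are background-subtracted and detrended within each array. The authors' deposited log2 table was made by quantile normalization. Here spots of the same probe were averaged, and log2 values were brought to common quantiles across 24 arrays, which differed from that table by a median of 6.54e-07. Spots flagged as outliers had no weight, and 1417 control spots were left out.

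The 6 An-MBs arrays were fitted with limma 3.58.1 in R 4.3.3 (tables were read by data.table, version 1.17.8), without a replicate block. Adjusted p-values cover all probes tested. Interaction contrasts used 1 limma fit of 24 arrays. Simulated data were used to test the scripts. Precision is limited by 3 arrays per group, and p-values measure the spread between mixtures of rows.

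Named probes were the 10 largest rises and falls among probes well above background on all arrays without overlap, those of the study's table of representative genes, the called members of gene lists, the 5 largest bounds each way, and the 5 largest named rises and falls called only without MES replicate 2. Members and lists were chosen with earlier results of these data known. None of 40632 array identifiers was found in the RefSeq table (0 matches). Alternatives covered normalization, background, filters, weights, blocks, scan day, the methods' t-test, averaged mock arrays and each array left out, and the filter of at least 2 of 5 arrays and the 4-fold sets were added after the data were seen. The study's own fold changes and p-values were not used.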

Additional observations from a re-analysis of the deposited data

Results flagged for a closer look

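For 17 probes the effect of MES differed between An-MBs and An-LBs by an interaction contrast over all 24 arrays (limma, adjusted p under 0.05). They come from the study's table of representative genes and from further named probes picked by hand with results known. The remaining named probes were not counted here, so 17 is not a share of all named probes. Each difference is the MES minus mock change in An-MBs minus that in An-LBs, on the log2 scale. Among pollen genes the fall was deeper in An-MBs for AT3G07840 (-6.11 and -7.21 on 2 probes, adjusted p = 3.2e-06 and 4.43e-06), FLA5 (-7.06, adjusted p = 0.000267), AT3G28980 (-4.95, adjusted p = 0.000106), AT5G53820 (-4.87, adjusted p = 0.000664) and VGDH2 (-4.28, adjusted p = 0.000249). The difference was positive for AHA6 (4.06, adjusted p = 9.29e-06), PGA4 (2.53, adjusted p = 0.000499) and the VGD1 probe A_46_P003076 (2.39, adjusted p = 0.0447). The mock means of these 3 probes were lower in An-MBs than in An-LBs, and PGA4 was not above background in MES An-MBs, so its change there could not reach the -7.43 of An-LBs and the direction of its difference is set by the floor. AT3G23510 fell by more in An-MBs (-1.89, adjusted p = 0.00747). Several of these probes were at the floor in 1 of the groups, which limits the size of the differences.

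OLEO4 rose in An-MBs by 2.21 and fell in An-LBs by 2.80, a difference of 5.01 (adjusted p = 2.46e-07). CYP81D1 (3.08, adjusted p = 0.00016), SPX1 (2.50, adjusted p = 0.00081) and DWF4 (1.60, adjusted p = 0.00484) had a more positive change in An-MBs, and AT3G52130 (8.12, adjusted p = 0.00504) did so while it was at the floor in both groups of An-LBs. WRKY25 (-2.54, adjusted p = 4.44e-05) and GA2OX2 (-2.68, adjusted p = 0.0403) rose by more in An-LBs. Groups of 3 arrays were not searched for outlying samples.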

How the results depend on the processing

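Counts are given as probes higher and lower in MES An-MBs, against 1474 and 994. They were 2514 and 1655 with all 24 arrays in 1 fit, 2495 and 1635 with the slide as a random block, 377 and 404 with the scan day as a term, 340 and 348 by the methods' t-test, 384 and 367 by that test after Benjamini-Hochberg adjustment, 316 and 122 with mock replicates 1 and 2 averaged, and 4832 and 3736 with array weights. With probes well above background on all 6 arrays they were 1311 and 545, which by construction leaves out probes dim in 1 group and raised the share of higher calls to 70.6%, against 59.7%. With mock replicates 1 and 2 averaged this share was 72.1%, and with the scan day as a term 48.3%. Other normalizations, background corrections and weights moved neither count by more than 1.5 times. The late-anther set had 462 lower probes, and 133 under the stricter filter, 216 and 227 by the t-test without and with adjustment, and 82 with mock arrays averaged.

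With 1 array left out, and at least 3 of 5 arrays well above background, 182 to 3076 probes were higher, 69 to 2213 lower, and 60 to 518 of the late-anther set lower. The fewest came without mock replicate 1, and that filter drops probes detected only in mock when a mock array is left out. With at least 2 of 5 arrays, counts of higher and lower probes were 504 and 524 without MES replicate 1, 3263 and 2214 without MES replicate 2, 439 and 405 without MES replicate 3, 367 and 402 without mock replicate 1, 737 and 642 without mock replicate 2, and 672 and 477 without mock replicate 3, and the late-anther set had 305 to 518 lower. Between 187 and 300 named probes had a value under an alternative, and none of those that passed the test with all arrays had the opposite sign there, whereas probes that did not pass were not held to this. Every called probe had groups without overlap, so leaving out or averaging arrays could not reverse its sign. The cause of these changes was not tested.

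The numbers were not taken as pairs, since the study's methods describe no pairing. For each replicate number, the deviations of its MES and its mock array from the group mean correlated at 0.241, 0.261 and 0.0164. These values have no reference from unmatched numbers and do not decide whether the numbers were pairs. With the replicate block, 913 probes were higher and 751 lower.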
